A study of Mus musculus with 10 samples.

Results

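Tmc4, Tmc5, Tmc6, Tmc7 and Tmc8 are 5 genes of the transmembrane channel-like family, described here across bulk RNA-seq of 10 mouse livers. They are 5 of the 55291 genes in the count table. The set was picked because Tmc7 differed between genotypes in opposite directions with vehicle and with CCl4, that is, it was chosen by the measured Tmc7 values of these livers, so those differences of Tmc7 are described without a test. All 10 female mice were 16 to 20 weeks old and carried a Cas9 gene behind a Lox-Stop-Lox cassette. All received an AAV8 virus with a U6-driven guide RNA and Cre under the hepatocyte promoter TBG, so that only cells in which this promoter is active gain Cas9 while RNA was taken from whole liver. The guide was either a non-targeting control (NTC) or one against Bap1 (sgBap1), which encodes a deubiquitinase and tumor suppressor. At day 10 the mice were injected with 10 µL per g of body weight of carbon tetrachloride (CCl4, 1 part to 9 parts of olive oil), which damages hepatocytes around the central veins, or with olive oil as vehicle (Veh), and livers were taken 48 h later. The groups were NTC-Veh (n = 2), sgBap1-Veh (n = 2), NTC-CCl4 (n = 3) and sgBap1-CCl4 (n = 3). Each library was made from the liver of a separate mouse.

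Tmc proteins cross the membrane many times and are distant relatives of the anoctamin and TMEM63 channels. TMC1 and TMC2 are subunits of the mechanotransduction channel of the hair cells of the inner ear. TMC6 and TMC8, also called EVER1 and EVER2, restrict papillomaviruses in skin, are known from lymphocytes, and bind the calcium-binding protein CIB1 and the zinc transporter SLC30A1. TMC4 is a voltage-dependent chloride channel of the taste system, and TMC7 is needed for acrosome formation in sperm.

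The members sit in 3 places of the mouse genome (GENCODE vM21 on GRCm38). Tmc7 (ENSMUSG00000042246.5, minus strand of chromosome 7, 118535841 to 118584736) and Tmc5 (ENSMUSG00000030650.18, plus strand, 118597297 to 118675086) point away from each other across 12560 bases. Tmc6 (ENSMUSG00000025572.17, minus strand of chromosome 11, 117765988 to 117782198) and Tmc8 (ENSMUSG00000050106.17, plus strand, 117782076 to 117793110) also point away from each other, and their first annotated bases overlap by 123 bases. Tmc4 (ENSMUSG00000019734.16, minus strand of chromosome 7, 3665790 to 3677553) stands apart from the other members. All 5 are protein-coding genes.

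**Figure D1:**
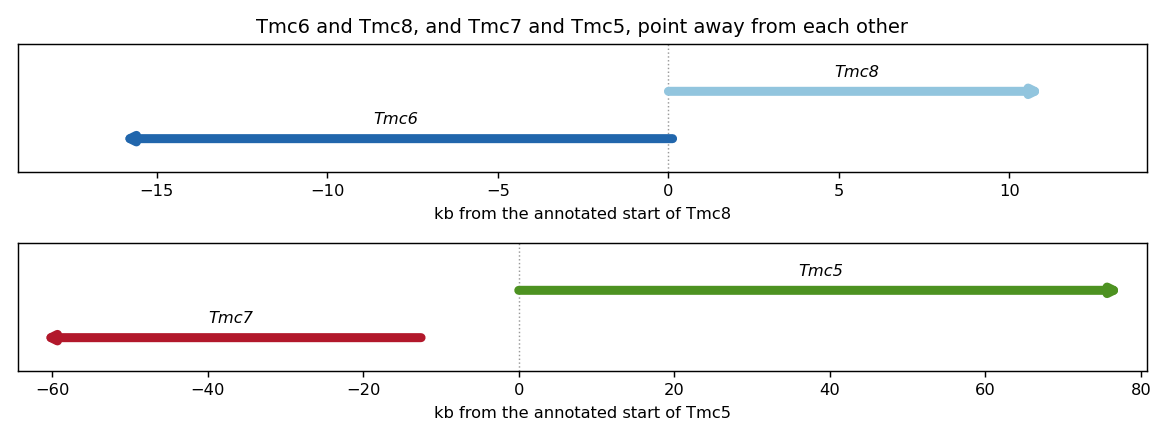
Positions of Tmc6 and Tmc8 (top) and of Tmc7 and Tmc5 (bottom) as annotated, in kb from the first annotated base of Tmc8 and of Tmc5, with arrows pointing along transcription. The 2 genes of each pair are transcribed away from each other, with 123 overlapping bases for Tmc6 and Tmc8 and 12560 bases between Tmc7 and Tmc5.

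RefSeq promoter windows on GRCm38.p6 matched 4 of the 5 members, all but Tmc5. They were searched on both strands from 250 bases before to 30 bases after the RefSeq gene start. RefSeq starts are chr7:118584686 for Tmc7, chr11:117780692 for Tmc6 and chr11:117782297 for Tmc8. These lie inside the GENCODE genes given above, as do the marked motifs, so the annotations differ in where the genes start. The stretches that hold a match are shown so that the Tmc6 and Tmc8 starts, which lie back to back, can be compared. Capitals mark TGACGTCA, the palindromic cyclic AMP response element, in Tmc7 (chr7:118584707-118584936, minus strand), and CACGTG, the palindromic E-box, in Tmc6 (chr11:117780678-117780707, minus strand) and Tmc8 (chr11:117782268-117782297, plus strand).
Tmc7: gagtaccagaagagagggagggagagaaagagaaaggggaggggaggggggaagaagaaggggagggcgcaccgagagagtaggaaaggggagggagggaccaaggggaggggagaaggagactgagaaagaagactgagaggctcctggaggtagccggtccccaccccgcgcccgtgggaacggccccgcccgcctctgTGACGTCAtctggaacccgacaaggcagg
Tmc6: gcaggaacgagtCACGTGacctttggggcc
Tmc8: cggggttcctgtCACGTGacccccacccca
In Tmc7 the 1st base of TGACGTCA lies 49 bases before the RefSeq start, and 1.74% of 32851 such mouse windows hold these letters. The E-box begins 3 bases before the RefSeq start of Tmc6 and 17 bases before that of Tmc8, and 6.79% of the windows hold at least 1. A further E-box lies just after the Tmc6 start and is not shown. Both E-boxes shown lie in the longer palindrome GTCACGTGAC, which contains CACGTG. This palindrome was read from the Tmc6 and Tmc8 windows themselves, so its presence in both was fixed in advance. It occurs in 0.317% of the windows. The RefSeq starts of Tmc6 and Tmc8 are 1605 bases apart, so the windows share no base, whereas the GENCODE genes overlap by 123 bases. The Tmc4 window holds none of the 3 motifs.

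Each library held 3.30e+07 to 5.22e+07 estimated counts. Expression is given as CPM, counts scaled to the TMM-normalized library size, in which 3 counts, taken as the floor, are 0.0511 to 0.112 CPM. This floor covers counting error only. Changes are log2 fold changes ± SE, with an adjusted p over all tested genes from edgeR's quasi-likelihood test, and levels are CPM as mean ± SD. Bap1 measured 34.8 ± 0.0265 CPM in NTC-Veh and 18.5 ± 1.35 CPM in sgBap1-Veh livers (mean ± SD, n = 2 each), and 30.4 ± 1.00 and 19.3 ± 2.43 CPM in NTC-CCl4 and sgBap1-CCl4 livers (n = 3 each). The 6 hepatocyte markers summed to at least 64469 CPM in every liver. The sgBap1-CCl4 liver of replicate 2 stood apart by fat cell markers, with 127 CPM summed over 4 genes against 0.565 to 15.4 CPM in the other 9 livers, and leaving it out changed no call of a tested member.

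Tmc7 was the member with the widest range between livers. It measured 5.58 and 4.21 CPM in the NTC-Veh livers and 2.48 and 2.21 CPM in the sgBap1-Veh livers. With CCl4 it measured 6.25, 5.05 and 6.01 CPM in NTC livers and 10.7, 10.8 and 11.8 CPM in sgBap1 livers. Both sgBap1-Veh livers lay below, and all 3 sgBap1-CCl4 livers above, every NTC liver. Ordered by mean, the groups ran from sgBap1-Veh (2.34 ± 0.189 CPM, SD, n = 2) through NTC-Veh (4.90 ± 0.968 CPM, n = 2) and NTC-CCl4 (5.77 ± 0.632 CPM, n = 3) to sgBap1-CCl4 (11.1 ± 0.569 CPM, n = 3). The neighbors NTC-Veh and NTC-CCl4 overlapped, and no other neighbors in this order did. These values rest on 59 to 632 counts per liver.

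**Figure D2:**
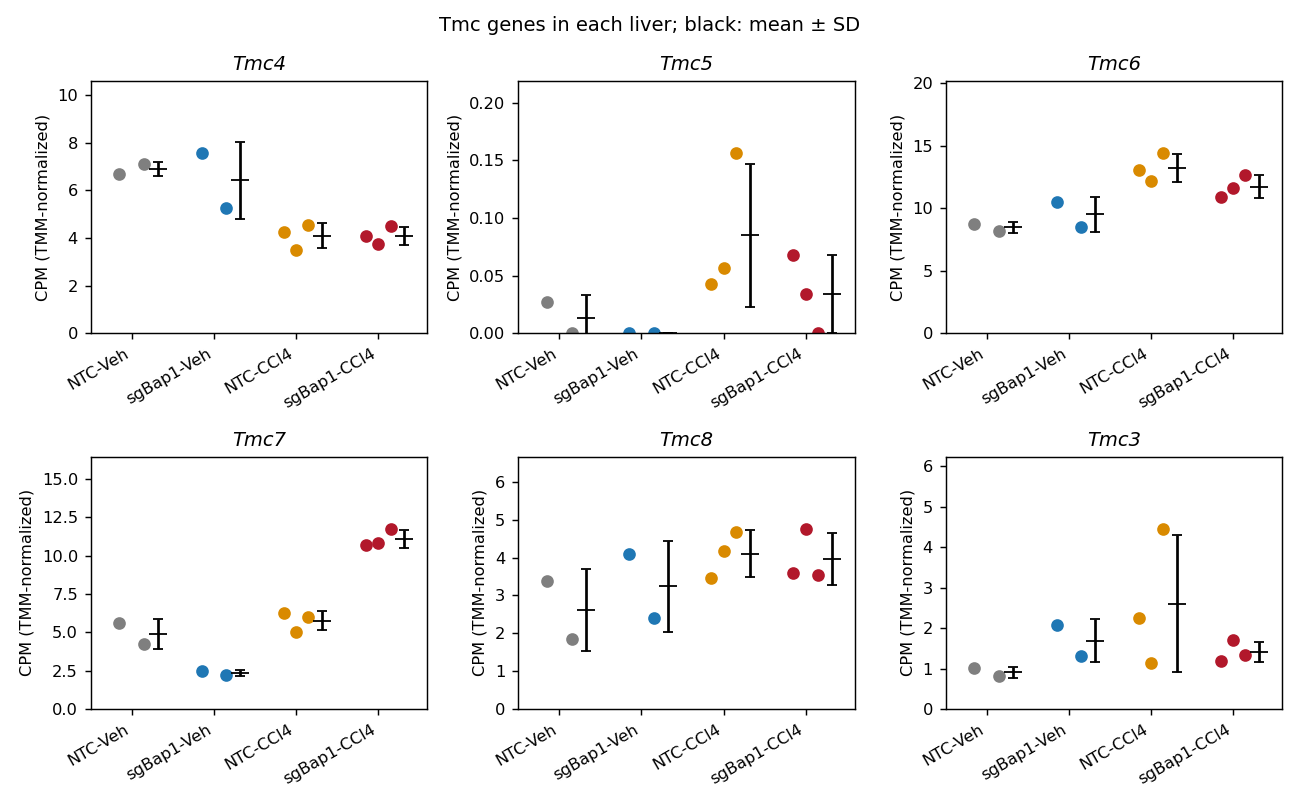
CPM of the 5 members and of Tmc3 in each liver, by group, with the mean and SD of each group in black (n = 2 with vehicle, n = 3 with CCl4). Each panel has its own axis from 0. The 3 sgBap1-CCl4 livers hold the highest Tmc7 values, 10.7 to 11.8 CPM, and the 2 sgBap1-Veh livers the lowest, while Tmc4 is lower in all 6 CCl4 livers than in all 4 vehicle livers.

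The genotype difference of Tmc7, which chose the set, was -1.06 ± 0.19 in log2 (fold change ± SE, sgBap1 over NTC) under vehicle and 0.94 ± 0.13 under CCl4. Its vehicle groups did not overlap, nor did its CCl4 groups. Of the 17015 genes tested, 40.9% likewise had vehicle groups without overlap and 20.3% CCl4 groups without overlap. The difference between both genotype effects was 2.00 ± 0.23 (SE). Without the liver rich in fat cell markers, the value with CCl4 was 0.96. With each of the 10 livers left out in turn, the vehicle value lay between -1.25 and -0.84 and the CCl4 value between 0.86 and 1.01. The vehicle value of -0.84 was that without NTC-Veh replicate 1, the vehicle liver with the most Tmc7.

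Within a genotype, Tmc7 was 1.18-fold higher with CCl4 than with vehicle in NTC livers (0.23 ± 0.16 in log2) and 4.71-fold higher in sgBap1 livers (2.24 ± 0.17). These comparisons share livers with the differences that chose the gene and are described only. Under scaling by library size alone, the value in NTC livers was 0.71, beside a median of 0.50 over all tested genes. Without NTC-Veh replicate 2 it was 0.05, and without replicate 1 it was 0.45. The share of Tmc7 in the summed counts of the 5 members does not depend on the scaling. It was 22.8% and 19.8% in NTC-Veh livers, 10.1% and 12.0% in sgBap1-Veh livers, 20.2% to 23.1% in NTC-CCl4 livers and 35.0% to 36.6% in sgBap1-CCl4 livers. The shares of the 2 NTC groups thus overlapped, and those of both sgBap1 groups lay outside them, on either side.

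The effect of CCl4 averaged over both genotypes is not one of the differences that chose Tmc7, and it was tested. It rests on the same livers and the same spread within groups, and choosing a gene by clear group differences favors a small spread. The p-value of Tmc7 may therefore be too low. With equal weight to each genotype, Tmc7 rose 2.36-fold with CCl4 (1.24 ± 0.12 in log2, adjusted p = 5.83e-06 by edgeR's quasi-likelihood test). The CCl4 and vehicle livers of both genotypes together overlapped, since NTC-Veh replicate 1 lay above NTC-CCl4 replicate 2. The average joins a small and a large difference and describes neither genotype. In this comparison 67.2% of all tested genes were called at an adjusted p under 0.05, and 3 of the 4 tested members were called, Tmc7 and Tmc6 as higher and Tmc4 as lower. As a count of 3 of 4, this is near the background. In 2 of the 4, Tmc4 and Tmc6, no CCl4 liver overlapped any vehicle liver, as in 53.2% of all tested genes.

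The genes whose pattern over the 10 livers was most like that of Tmc7 were ranked by the Pearson correlation of log2 CPM among 12027 genes with at least 100 counts on average. All genes of a liver share its library depth, and the livers fall into groups, so the correlations are descriptions. Polk, a translesion DNA polymerase, came first (r = 0.967), followed by Cpeb2, a regulator of mRNA translation (0.958), Mdm2, the ubiquitin ligase that acts on p53 (0.956), Prkar1a, a regulatory subunit of protein kinase A (0.950), and Nudc (0.946). Polk measured 11.6 ± 0.399 and 8.09 ± 0.144 CPM in NTC-Veh and sgBap1-Veh livers (SD, n = 2 each), and 12.5 ± 1.24 and 14.8 ± 0.511 CPM in NTC-CCl4 and sgBap1-CCl4 livers (n = 3 each). Mdm2 measured 48.5 ± 3.26 and 38.1 ± 2.22 CPM with vehicle, and 63.1 ± 0.958 and 81.5 ± 5.13 CPM with CCl4, in the same order. Both were thus lowest in sgBap1-Veh and highest in sgBap1-CCl4 livers, as Tmc7 was, over a narrower range. Of the 5 genes, 1 was also among the first 5 by Spearman's rank correlation. The other members were less alike, with r of 0.51 for Tmc6, 0.41 for Tmc8 and -0.61 for Tmc4.

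Tmc4, the chloride channel gene, fell with CCl4 in both genotypes. It measured 6.70 and 7.09 CPM in NTC-Veh and 7.56 and 5.28 CPM in sgBap1-Veh livers. With CCl4 it measured 4.24, 3.51 and 4.55 CPM in NTC and 4.07, 3.73 and 4.49 CPM in sgBap1 livers. Every CCl4 liver lay below every vehicle liver, and the genotypes overlapped under both treatments. Its log2 change with CCl4 was -0.75 ± 0.18 (SE, adjusted p = 0.00513) in NTC, -0.66 ± 0.18 (adjusted p = 0.0102) in sgBap1 and -0.71 ± 0.13 (adjusted p = 0.000612) averaged over both. With library size alone it kept its sign but passed the threshold in none of the 3 comparisons (-0.28, -0.19 and -0.23, adjusted p = 0.227, 0.414 and 0.143). Without sgBap1-Veh replicate 1, the value in sgBap1 livers was -0.36 (adjusted p = 0.179). By genotype, the change was -0.09 ± 0.20 (adjusted p = 0.919) under vehicle and -0.00045 ± 0.16 (adjusted p = 1.00) under CCl4.

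At its last bases Tmc4 overlaps Leng1 by 51 bases on the same strand, and it overlaps the antisense gene Gm15929, which had at most 1 count in any liver. Leng1 fell too with CCl4, to 0.487-fold in NTC (adjusted p = 5.94e-05) and 0.499-fold in sgBap1 livers (adjusted p = 6.87e-05). Mboat7, which ends 235 bases upstream of Tmc4 on the same strand, had -0.06 (adjusted p = 0.601) and 0.21 (adjusted p = 0.0658). How Salmon divided reads between Tmc4 and Leng1 was not tested. Stretches of 50 bases that also occur in another gene make up 1.42% of the distinct stretches of Tmc4 transcripts. Over the 10 livers the pattern of Tmc4 was most like that of Lsr, a receptor for lipoproteins (r = 0.969), and that of Fech, the last enzyme of heme synthesis, was the fifth (0.968). Lsr fell from 204 ± 18.5 CPM in NTC-Veh to 125 ± 12.7 CPM in NTC-CCl4 livers (SD, n = 2 and 3), a change of -0.70 ± 0.12 in log2 (adjusted p = 0.000789).

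Tmc6 (EVER1) rose with CCl4 in NTC livers. It measured 8.77 and 8.15 CPM in NTC-Veh, 10.5 and 8.50 CPM in sgBap1-Veh, 13.0, 12.2 and 14.4 CPM in NTC-CCl4 and 10.9, 11.6 and 12.7 CPM in sgBap1-CCl4 livers. Every CCl4 liver again lay on one side of every vehicle liver, here above, and genotypes overlapped under both treatments. Its log2 change with CCl4 was 0.64 ± 0.13 (SE, adjusted p = 0.00194) in NTC livers and 0.30 ± 0.13 (adjusted p = 0.0712) in sgBap1 livers. The difference between these values did not pass the threshold (-0.34 ± 0.18, adjusted p = 0.571). In sgBap1 livers the result hung on a single liver and on the scaling, since it was 0.47 (adjusted p = 0.0349) without sgBap1-Veh replicate 1 and 0.77 (adjusted p = 0.000767) with library size alone. Averaged over genotypes the rise was 0.47 ± 0.09 (adjusted p = 0.00101), or 1.39-fold. By genotype, Tmc6 had 0.17 ± 0.14 (adjusted p = 0.716) under vehicle and -0.17 ± 0.11 (adjusted p = 0.521) under CCl4.

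Tmc8 (EVER2), the neighbor of Tmc6, passed the threshold in no comparison. It measured 3.38 and 1.86 CPM in NTC-Veh, 4.09 and 2.40 CPM in sgBap1-Veh, 3.45, 4.17 and 4.68 CPM in NTC-CCl4 and 3.59, 4.76 and 3.53 CPM in sgBap1-CCl4 livers. In each vehicle group replicate 2 was well below replicate 1, and the spread within these groups was as wide as the step to the CCl4 groups. With CCl4 its log2 change was 0.64 ± 0.30 (SE, adjusted p = 0.0923) in NTC, 0.27 ± 0.29 (adjusted p = 0.454) in sgBap1 and 0.46 ± 0.21 (adjusted p = 0.0754) averaged over both. In NTC livers it was 1.14 (adjusted p = 0.0304) without NTC-Veh replicate 1 and 1.13 (adjusted p = 0.00937) with library size alone. The average was 0.70 (adjusted p = 0.0204) without NTC-Veh replicate 1, 0.69 (adjusted p = 0.0269) without sgBap1-Veh replicate 1 and 0.94 (adjusted p = 0.00254) with library size alone. By genotype it was 0.33 ± 0.33 (adjusted p = 0.779) under vehicle and -0.05 ± 0.25 (adjusted p = 0.960) under CCl4, and with single livers left out both values took either sign.

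Tmc8 had 0.228 to 0.411 counts for each count of Tmc6, with no group outside the range of the others. Over the 10 livers their log2 CPM had a Pearson correlation of 0.77 and a Spearman correlation of 0.62. By this measure Tmc8 ranked 2638 among the 12027 genes in likeness to Tmc6, and Tmc6 ranked 373 in likeness to Tmc8. Most like Tmc6 was Zfp90 (r = 0.983), and the other first 4 were Npl, Myo7a, Wdr76 and Lmo2. Most like Tmc8 was Pira2 (0.954), a receptor gene of myeloid cells whose family members are near-identical and whose counts are therefore uncertain, and then Cdc42ep2, Rcsd1, D11Wsu47e and Flt4. The library kit keeps strand, but the library type set in Salmon was not given in the sources used here, so reads in the 123 shared bases of Tmc6 and Tmc8 cannot be told apart. Gm11723 and Gm11724, antisense to Tmc8, had at most 2 counts in any liver.

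Tmc5 was at the limit of detection. Its counts were 1 and 0 in NTC-Veh, 0 and 0 in sgBap1-Veh, 2, 3 and 6 in NTC-CCl4 and 4, 2 and 0 in sgBap1-CCl4 livers, which is at most 0.156 CPM. With 3 counts as the floor, 2 of the 10 livers were above it, 1 in each CCl4 group. It did not pass the filter on low counts and was not tested, and no fold change is given. Next to it in the genome, Tmc7 thus reached 632 counts in a liver with 2 counts of Tmc5.

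**Figure D3:**
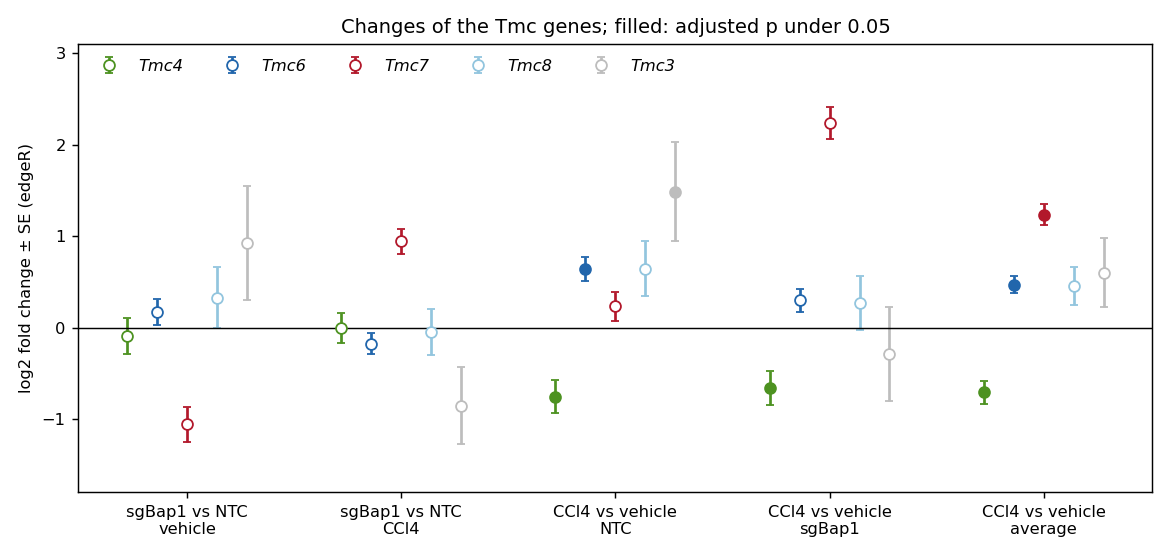
Log2 fold changes ± SE of Tmc4, Tmc6, Tmc7, Tmc8 and Tmc3 in 5 comparisons, from edgeR's fit of all 10 livers, with filled circles for an adjusted p under 0.05. Tmc7 is drawn open in the first 4 comparisons because it was described without a test there, at -1.06, 0.94, 0.23 and 2.24, while Tmc4 lies below 0 in all 3 CCl4 comparisons.

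Tmc4, Tmc6 and Tmc8 were counted apart, since the set was picked by the values of Tmc7. The members were still chosen with earlier results of these data known. None of the 3 was called by genotype with vehicle, where 0.406% of the 17015 tested genes were called, and none with CCl4, where 0.329% were. With CCl4 in NTC livers 2 of the 3 were called, Tmc4 as lower and Tmc6 as higher, beside 53.9% of all genes. With CCl4 in sgBap1 livers 1 of the 3 was called, Tmc4, beside 57% of all genes. Between vehicle and CCl4 the groups of all 3 did not overlap in NTC livers, beside 71.7% of all genes, and those of Tmc4 and Tmc6 did not overlap in sgBap1 livers, beside 72.2%. None of these shares stands out from its background. The interaction of genotype and CCl4 was called for none of Tmc4, Tmc6 and Tmc8 and for 0% of genes by edgeR, with 1764 genes at an unadjusted p under 0.05, and DESeq2's Wald test called 411 genes. Tmc4, Tmc6 and Tmc8 had interactions of 0.09 (adjusted p = 0.943), -0.34 (adjusted p = 0.571) and -0.38 (adjusted p = 0.830). Each of the 4 tested members had at least 59 counts in every liver, so none passed the filter through 1 group alone. With 2 livers against 2, an exact permutation test of a single gene cannot give a p below 0.333, and with 3 against 3 not below 0.1.

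Levels of different genes were compared as CPM per kb of annotated exon. Averaged over the 10 livers, Tmc6 had the highest level (2.71 ± 0.514 CPM per kb, SD, n = 10), and Tmc4 (1.20 ± 0.344), Tmc8 (1.17 ± 0.302) and Tmc7 (1.13 ± 0.599) followed within each other's spread. Tmc5 had 0.0086 ± 0.0108 CPM per kb. The place of Tmc7 depended on the group. In sgBap1-Veh livers it was the lowest of the 4 tested members, at 0.406 ± 0.0329 CPM per kb against 1.06 ± 0.392 for Tmc8 (n = 2). In sgBap1-CCl4 livers it stood second, at 1.93 ± 0.0987 CPM per kb, between Tmc6 (2.86 ± 0.220) and Tmc8 (1.30 ± 0.227, n = 3), with no overlap of livers on either side.

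**Figure D4:**
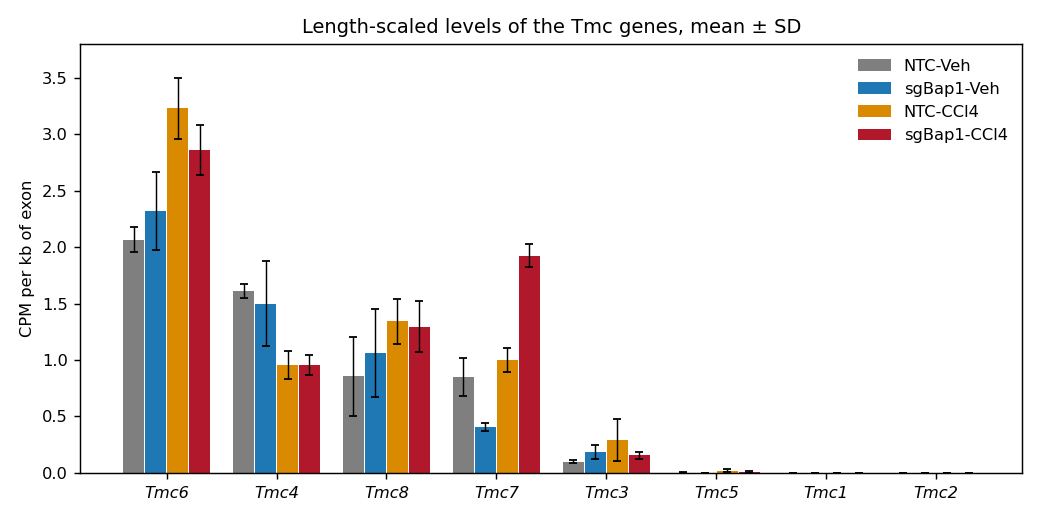
Level of each Tmc gene as CPM per kb of exon, with bars for the mean and error bars for the SD of the 4 groups (n = 2 with vehicle, n = 3 with CCl4). Tmc6 has the tallest bars in every group, and Tmc7 goes from 0.406 in sgBap1-Veh to 1.93 in sgBap1-CCl4 livers, while Tmc5, Tmc1 and Tmc2 are at or close to 0.

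Of the rest of the family, the hair cell genes Tmc1 and Tmc2 had at most 1 and 0 counts in any liver. Tmc3 was measurable, with 1.01 and 0.804 CPM in NTC-Veh, 2.07 and 1.31 CPM in sgBap1-Veh, 2.24, 1.13 and 4.45 CPM in NTC-CCl4 and 1.19, 1.69 and 1.34 CPM in sgBap1-CCl4 livers. NTC-CCl4 replicate 3 lay far above all others. In NTC livers Tmc3 rose by 1.49 ± 0.54 in log2 with CCl4 (adjusted p = 0.0409), but the value was 0.88 (adjusted p = 0.0969) without that liver, and the call was also lost without the filter on low counts and in other fits. The Tmc3 antisense gene Gm16638 overlaps it by 28567 bases and fell in the same comparison (-0.77 ± 0.23, adjusted p = 0.0164). By genotype, Tmc3 had 0.92 ± 0.62 (adjusted p = 0.629) under vehicle and -0.85 ± 0.42 (adjusted p = 0.399) under CCl4. Its values thus also differed in sign between the treatments, in the reverse order to Tmc7, but neither was called. Their difference was -1.78 ± 0.75 (adjusted p = 0.447).

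Known partners of the TMC proteins were listed as 8 genes, of which 5 were tested. None was called by genotype under either treatment, beside 0.406% and 0.329% of all genes. With CCl4, 2 of the 5 fell in NTC livers, and in sgBap1 livers 2 fell and 1 rose, beside 53.9% and 57% of all genes called in either direction. Tmie, an accessory subunit of the hair cell channel, measured 19.8 and 21.0 CPM in NTC-Veh and 18.7 and 18.8 CPM in sgBap1-Veh livers, against 3.49 to 5.11 CPM in NTC-CCl4 and 2.24 to 3.73 CPM in sgBap1-CCl4 livers. Its log2 change with CCl4 was -2.27 ± 0.20 (adjusted p = 9.66e-06) in NTC and -2.60 ± 0.20 (adjusted p = 4.50e-06) in sgBap1 livers, a wider change than that of any member in NTC livers. Slc30a1, the zinc transporter that binds TMC6 and TMC8, fell by -0.39 ± 0.13 (adjusted p = 0.0286) and -0.52 ± 0.13 (adjusted p = 0.00680). Cib1, their calcium-binding partner, had -0.01 ± 0.09 (adjusted p = 0.901) in NTC and rose by 0.34 ± 0.09 (adjusted p = 0.00710) in sgBap1 livers, while the difference between these values had an adjusted p of 0.329. The median log2 fold change of the 5 tested partners was -0.39 in NTC and -0.52 in sgBap1 livers, beside 0.03 and 0.04 over all tested genes.

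Among 13 anoctamin and Tmem63 genes, the nearest relatives of the family, 9 were tested and none was called by genotype, beside the same 0.406% and 0.329%. With CCl4, 2 rose and 1 fell in NTC livers, and 2 rose and 2 fell in sgBap1 livers, beside 53.9% and 57% of all genes called in either direction. Ano6, a phospholipid scramblase, rose from 6.25 ± 0.292 to 24.3 ± 3.64 CPM in NTC livers (SD, n = 2 and 3), a log2 change of 1.96 ± 0.19 (adjusted p = 1.85e-05), and by 1.39 ± 0.18 (adjusted p = 0.000121) in sgBap1 livers. Ano10 rose by 0.72 ± 0.10 (adjusted p = 0.000148) and 1.07 ± 0.10 (adjusted p = 1.25e-05). The mechanosensitive channel gene Tmem63b fell by -0.65 ± 0.12 (adjusted p = 0.000906) and -0.52 ± 0.12 (adjusted p = 0.00361), close to the change of Tmc4 in size, and Tmem63a fell in sgBap1 livers (-0.54 ± 0.14, adjusted p = 0.00633).

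Sums of cell type markers also differed between the groups, but they did not all follow the members. In bulk RNA, fewer cells of a type and less RNA per cell cannot be told apart. The 5 leukocyte markers summed to 125 to 137 CPM in NTC-Veh, 179 to 211 CPM in sgBap1-Veh, 415 to 493 CPM in NTC-CCl4 and 422 to 496 CPM in sgBap1-CCl4 livers, and none was at 0. All 5 were called as higher with CCl4 in both genotypes, beside 53.9% and 57% of all genes called in either direction. By genotype under vehicle all 5 had a positive value. Of these, 1 was called, Ptprc (1.05 ± 0.18, adjusted p = 0.0419 by edgeR), beside 0.406% of all genes. Under CCl4 none was called by genotype, beside 0.329%, and 2 of the 5 had a positive value. The 9 markers of T and NK cells, cells that express Tmc6 and Tmc8, summed to 4.13 to 10.9 CPM in NTC-Veh, 15.6 to 16.7 CPM in sgBap1-Veh, 9.60 to 16.9 CPM in NTC-CCl4 and 9.35 to 13.5 CPM in sgBap1-CCl4 livers. The 6 B cell markers summed to 4.96 to 11.1, 12.3 to 15.6, 13.8 to 19.5 and 13.4 to 14.2 CPM in the same order. In both lists the sgBap1-Veh livers overlapped the NTC-CCl4 livers. Tmc8 overlapped there too (2.40 and 4.09 against 3.45 to 4.68 CPM), and Tmc6 did not (8.50 and 10.5 against 12.2 to 14.4 CPM). The part of these cells in the values of Tmc6 and Tmc8 was not tested.

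Tmc7 had its highest values in the same livers as the sum of 7 cholangiocyte markers. This sum was 43.9 to 52.2 CPM in NTC-Veh, 44.3 to 50.1 CPM in sgBap1-Veh, 194 to 250 CPM in NTC-CCl4 and 274 to 371 CPM in sgBap1-CCl4 livers. By genotype under CCl4, 5 of the 7 markers had a positive value, and Sox9 (-0.10 ± 0.12) and Muc1 (-0.39 ± 0.19) a negative one. None was called, beside 0.329% of all genes. Spp1, which other cells secrete too, made up 83.5% to 95.1% of this sum. Its mean was 199 CPM in NTC-CCl4 and 316 CPM in sgBap1-CCl4 livers. Without Spp1, which was left out after its values were seen, the other 6 markers summed to 5.23 to 8.59 CPM in NTC-Veh, 7.19 to 7.56 CPM in sgBap1-Veh, 14.1 to 19.4 CPM in NTC-CCl4 and 13.3 to 19.3 CPM in sgBap1-CCl4 livers, so that the genotypes overlapped under both treatments. No marker of the list was at 0, and its part in the Tmc7 values was not tested. The 6 hepatocyte markers summed to 116653 to 145057 CPM in NTC-Veh and 104778 to 108638 CPM in sgBap1-Veh, and to 70205 to 80591 CPM and 64469 to 82633 CPM with CCl4 in NTC and sgBap1 livers. Tmc4 moved the same way as this list with CCl4, where 5 of its 6 genes were called as lower in NTC livers and 2 in sgBap1 livers, beside 53.9% and 57% of all genes called in either direction, and their part in the Tmc4 values was not tested.

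**Figure D5:**
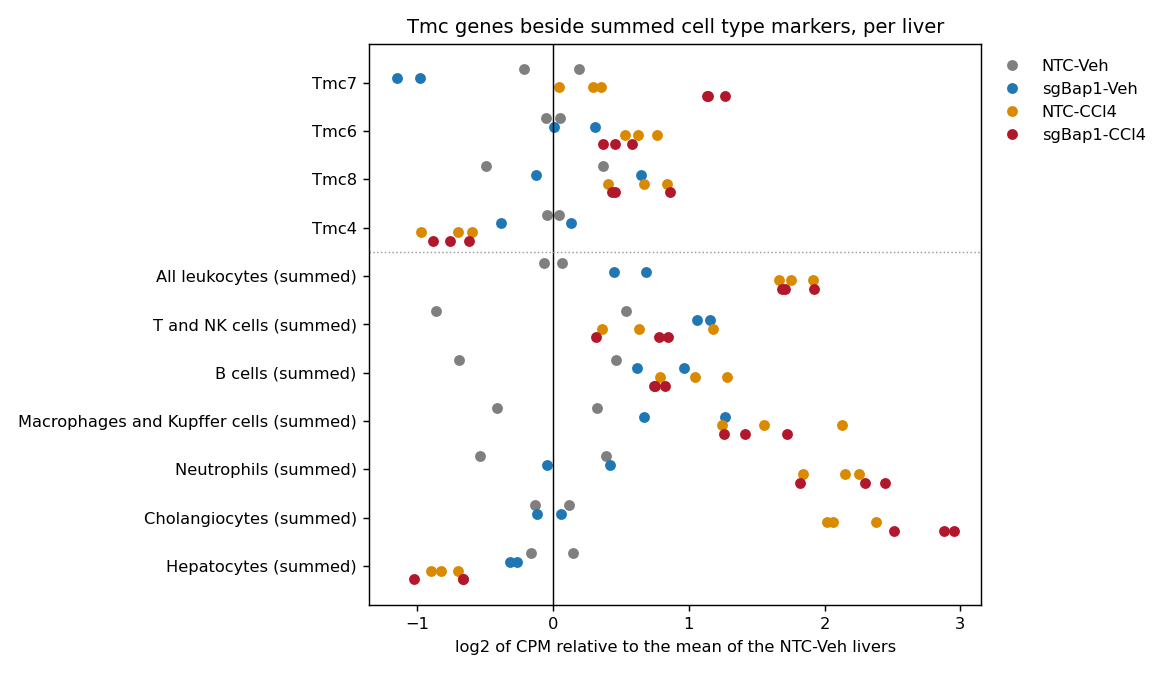
Log2 of CPM relative to the mean of the NTC-Veh livers for the 4 tested members (top) and for the summed markers of 7 cell type lists (bottom), with a point for each liver. Tmc7 spreads its sgBap1 livers to both sides of the NTC livers, and the leukocyte, neutrophil and cholangiocyte sums are higher in all 6 CCl4 livers than in all 4 vehicle livers.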

How the data were processed

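Per the labels and the study's methods, the authors made stranded polyA libraries (TruSeq), sequenced both ends to 50 bases, mapped to GRCm38 by STAR 2.7.6a and quantified genes by Salmon 1.4.0 on GENCODE vM25. The deposited table holds these estimated counts per gene without normalization, and 9.22% of the values are not whole. After rounding, edgeR 4.0.16 was run in R 4.3.3 (filterByExpr, 17015 genes kept; TMM; one robust quasi-likelihood fit of the 4 groups over all 10 livers), two-sided, with Benjamini-Hochberg adjustment over all tested genes and a threshold of 0.05. The SE is the log2 fold change divided by the square root of F. The fit was tested on simulated data. limma 3.58.1 (voom) and DESeq2 1.42.0 served as alternatives. Groups came from the labels, and p-values measure the spread between these livers. The members, gene lists and marker lists were chosen with earlier results of these data known. Genes named are the members, the lists, Bap1, overlapping or adjacent genes and the 5 genes most alike in pattern to each tested member. Gene positions are from GENCODE vM21 and promoter starts from RefSeq, and vM25 was not used here. The depth was 3.30e+07 to 5.22e+07 counts per liver. No batch is named in the sources used here.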

Additional observations from a re-analysis of the deposited data

Results flagged for a closer look

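The genotype difference of Tmc7 had opposite signs in the 2 treatments, with both sgBap1-Veh livers below both NTC-Veh livers (log2 fold change -1.06, n = 2 each) and all 3 sgBap1-CCl4 livers above all 3 NTC-CCl4 livers (0.94, n = 3 each). These values chose the gene, so they are a description, and the difference between them was not tested in livers other than those that chose it.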

How the results depend on the processing

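The counts of members called were recomputed with DESeq2 size factors, library size alone, no filter on low counts, a mean of at least 10 counts, a replicate block, DESeq2's Wald test, edgeR's earlier quasi-likelihood method, limma-voom, unrounded counts, only the livers compared, and each liver left out in turn. Tmc7 was left out of these counts except for the average of both genotypes, because its values chose the set. Beside the leave-one-out fits, every count of members called kept its value, although with library size alone the genes behind it differed. This does not cover Tmc7 in the other comparisons. Among the same settings, Tmc7 fell on either side of the threshold by genotype with vehicle, by interaction and with CCl4 in NTC livers. Its log2 value by genotype with vehicle stayed between -1.08 and -1.04. With single livers left out, the count was 2 to 3 with CCl4 in NTC livers and 3 to 4 for the average of both genotypes. Where a vehicle group was left with 1 liver, its spread was taken from the other groups. With the longest transcript as gene length, Tmc7 stood at place 3 in the order of the members' levels, ahead of Tmc8, instead of place 4.

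The near-zero genotype value of Tmc4 with CCl4 turned positive with library size alone (0.00911), no filter (0.00653), the replicate block (0.00149), DESeq2's Wald test (0.000367) and limma-voom (0.00865), and Tmc3 with CCl4 in sgBap1 livers turned positive with library size alone (0.19). With livers left out, values that changed sign ranged from -0.39 to 0.13 for Tmc4 by genotype with vehicle, -0.10 to 0.0787 with CCl4 and -0.13 to 0.39 for its interaction. For Tmc8 they ranged from -0.13 to 0.82, -0.20 to 0.0553 and -0.87 to 0.0857 in the same order and -0.0447 to 0.73 with CCl4 in sgBap1 livers, and for Tmc3 from -0.55 to 0.11 in the last comparison. The cause was not tested.

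Over all genes, calls by genotype ranged from 1 (replicate block) to 548 (DESeq2's Wald test) with vehicle and from 24 to 480 with CCl4 under the same settings, against 69 and 56. With single livers left out, they ranged from 0 (without NTC-Veh replicate 2) to 150 (without sgBap1-CCl4 replicate 2) with vehicle and from 1 (without NTC-CCl4 replicate 1) to 71 (without sgBap1-CCl4 replicate 3) with CCl4. For the interaction they ranged from 0 to 411 (DESeq2's Wald test), and from 0 to 7 with livers left out. Library size alone put 80.5% of calls with CCl4 in NTC livers on the higher side. The replicate numbers share only a number, since the deviations of 13 same-numbered pairs of livers had correlations of -0.13 to 0.10, with 1 over 0.1. The replicate block left 0 of Tmc4, Tmc5, Tmc6 and Tmc8 called by genotype with either treatment, and 0 by interaction. With CCl4 it left 2 of them called in NTC livers and 1 in sgBap1 livers. For the average, where Tmc7 was counted too, it left 3 members called. It ended the call of Tmc3 with CCl4 in NTC livers (1.14, adjusted p = 0.0968 by edgeR).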
